A study of Homo sapiens with 4 samples.

Results

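The 48 genes described here encode the proteins that license DNA replication origins, start the replication fork and keep it moving. They were chosen by gene name, with earlier results of these data known, and they are 48 of the 58735 genes listed in the tables. Gene expression was measured by RNA-seq in HaCaT, an immortalised human keratinocyte line that carries mutant p53. The cells were transfected with siRNA against ALKBH5 (siALKBH5) or with normal control siRNA (siControl), both as 200 pmol siRNA delivered with lipofectamine, and each group had 2 libraries. ALKBH5 is an RNA demethylase that removes m6A marks from mRNA, and the comparison asked which transcripts change when it is depleted. The labels give the genotype of both groups as WT. The study's methods list a pair of ALKBH5 siRNAs and the labels do not say which was used, so an effect of ALKBH5 loss and an effect of 1 siRNA cannot be told apart. Whether the libraries of a group came from separate cultures is not stated either, so p-values measure only the spread between these libraries, which may be technical.

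DNA replication is prepared in G1 phase. The origin recognition complex marks origins, and CDC6 and CDT1 then load the ring-shaped MCM helicase onto DNA in an inactive form, a step called licensing. Geminin, the product of GMNN, binds CDT1 and blocks a new round of licensing within the same cycle. At the start of S phase the kinase CDC7 with its activator DBF4 phosphorylates the MCM ring, and CDC45 and the GINS complex join it to make the active helicase. DNA polymerase alpha with primase then lays down primers, polymerases epsilon and delta extend them on a PCNA clamp that replication factor C loads, and FEN1 and LIG1 join the fragments of the lagging strand. In the epidermis this programme runs in basal keratinocytes and is shut down as cells move up and differentiate. Many of these genes are transcribed by E2F factors when cells pass from G1 into S phase.

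Each of the 4 libraries held between 16017502 and 18837807 counts on genes, of which mitochondrial genes took 10.2% in each control and 9.63% and 9.64% after knockdown. All 7 keratinocyte markers examined had at least 10 counts in every library, and their summed level, scaled by the total count alone, was 16411 to 16756 CPM in siControl and 21463 to 21469 CPM in siALKBH5. KRT5, KRT14 and SFN were above the controls in both siALKBH5 libraries, with KRT5 at 7205 and 6949 CPM in siControl and 11089 and 11202 CPM in siALKBH5, while KRT17, TP63, DSG3 and LAMB3 were below them, with TP63 at 271 and 281 CPM beside 258 and 253 CPM. Of 4 leukocyte markers, 0 had 10 counts in every library, and their summed level was 0.312 to 0.336 CPM in siControl and 0.120 to 0.265 CPM in siALKBH5. The summed level of 6 fibroblast markers was 22.0 to 23.0 CPM in siControl and 18.5 to 19.0 CPM in siALKBH5, with 2 of them at 0. The 4 melanocyte markers summed to 2.74 to 3.25 CPM in siControl and 3.13 to 3.85 CPM in siALKBH5, with 1 of them at 0, and the 3 endothelial markers summed to 32.7 CPM in both siControl libraries and to 34.7 to 35.1 CPM in siALKBH5. Of the endothelial markers VWF went from 18.3 and 19.5 to 26.6 and 26.3 CPM, CDH5 from 14.4 and 13.3 to 8.02 and 8.85 CPM, and PECAM1 had at most 1 count in any library. The part of these marker levels in the results below was not tested. ALKBH5 (ENSG00000091542, chromosome 17, 18183078 to 18209954, GRCh38) had 1512 and 1576 counts in the controls and 956 and 816 after knockdown. In CPM scaled also by the TMM factor, as in all CPM that follow, it fell from 90.7 ± 4.42 (SD, n = 2) to 50.4 ± 1.13 CPM, so that 55.5% of the control level was left.

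Replication genes were higher after ALKBH5 knockdown across nearly every step of the pathway. All 48 genes passed the expression filter, with between 29 and 3241 counts in any library. By edgeR's quasi-likelihood test with Benjamini-Hochberg adjustment over all 15075 genes tested, 41 of the 48 genes rose at an adjusted p under 0.05, as did 19.3% of all tested genes. ORC4 was the 1 gene called lower, against 17.3% of all tested genes, and the other 6 (ORC2, ORC3, ORC5, MCM3, GINS3 and RFC1) were not called. In either direction the test called 36.6% of all genes. The median log2 fold change of the 48 genes was 0.55, which is 1.47-fold, and that of all tested genes was -0.0081.

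The change was larger than 2-fold in 5 of the 48 genes, CDC45, ORC1, MCM10, CDC6 and ORC6, all of them higher, while 1.62% of all tested genes were higher and 1.3% lower past that limit. For 44 genes both siALKBH5 libraries lay above both siControl libraries in CPM, as they did for 32.8% of all tested genes. ORC4 was the 1 gene with both siALKBH5 libraries below both siControl libraries, as 33.5% of all genes were. The groups overlapped for ORC2, ORC5 and GINS3. With DESeq2 on the same counts 35 genes were higher, against 14.9% of the 13799 genes with an adjusted p, and 0 were lower, against 10.4%, with 1 lower at an unadjusted p under 0.05. Together the 48 genes took 0.138% of all counts in either control and 0.182% and 0.181% after knockdown. In bulk RNA a higher level per cell and a larger share of cells that express a gene cannot be told apart. The paper reported unaltered proliferation of HaCaT cells after ALKBH5 knockdown, by Ed-U staining and flow cytometry of the cell cycle among other assays. How that result relates to the RNA levels here was not tested.

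**Figure D1:**
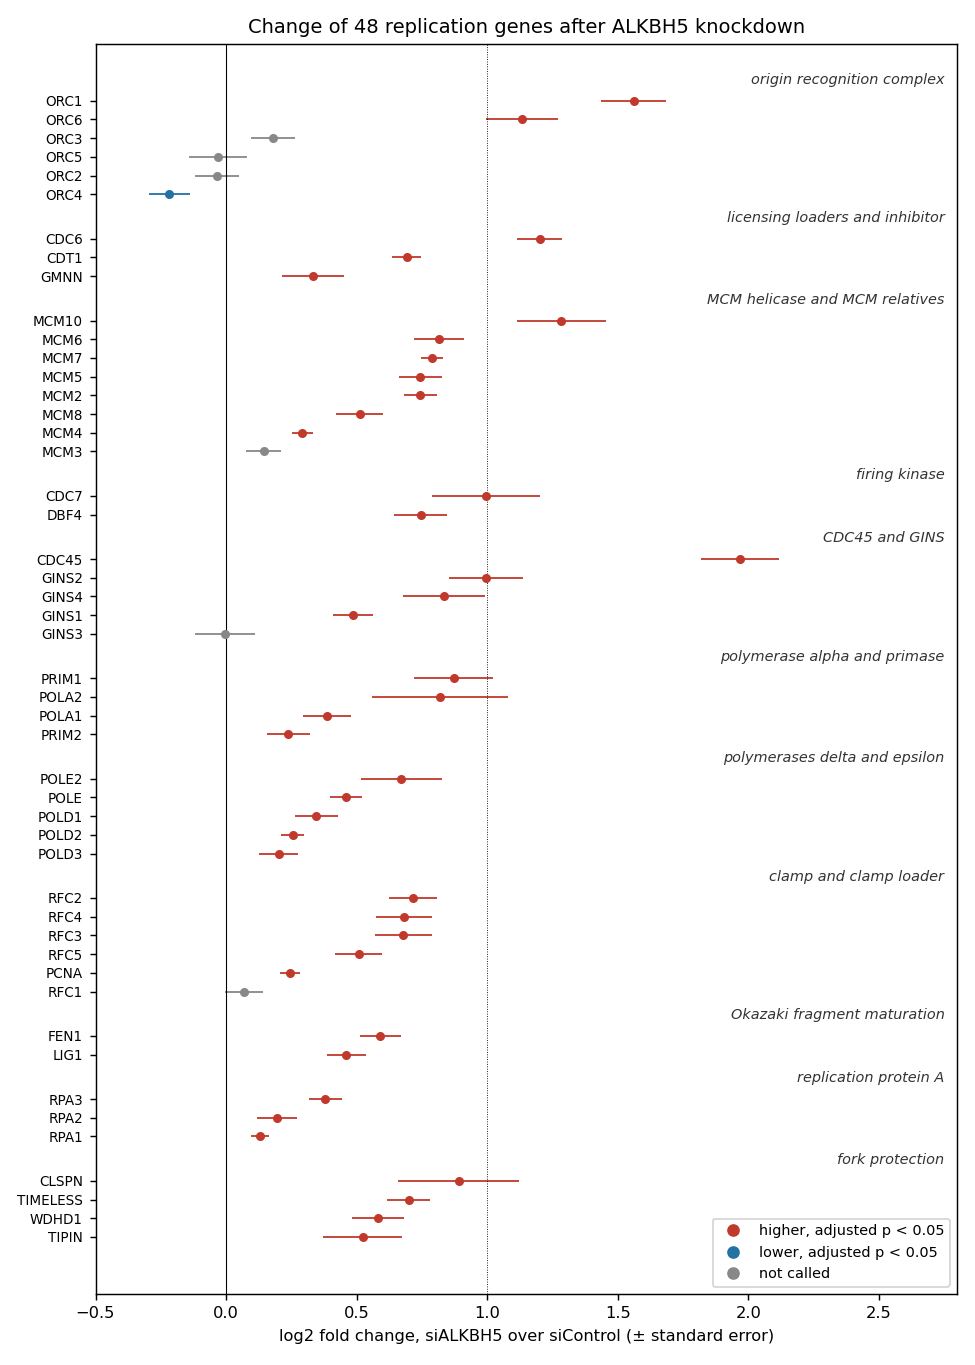
Each point is the log2 fold change of 1 gene (siALKBH5 over siControl, horizontal axis) with its standard error, in blocks by role. Red points were higher and the blue point lower at an adjusted p under 0.05 (edgeR), grey points were not called, and the dotted line marks 2-fold. CDC45 lies farthest to the right at 1.97 and ORC4 farthest to the left at -0.22.

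The origin recognition complex was the most divided group, with 2 of its 6 subunits higher, 1 lower and 3 not called. ORC1 (ENSG00000085840, chromosome 1, 52372829 to 52404459), the largest subunit, which binds ATP, had 105 and 131 counts in the controls and 399 and 319 after knockdown. Both knockdown libraries were far above both controls. The level of ORC1 rose from 6.90 ± 0.540 CPM (SD, n = 2) to 20.4 ± 1.40 CPM, a log2 fold change of 1.56 (standard error (SE) 0.12) with an adjusted p of 2.4e-12 by edgeR. ORC6 (ENSG00000091651, chromosome 16, 46689643 to 46698394), the smallest subunit and the least tightly bound, had 124 and 105 counts in the controls and 272 and 247 after knockdown. The groups did not overlap. Its log2 fold change was 1.13 (SE 0.14, adjusted p = 4.0e-08 by edgeR), and it was 0.94 without siControl replicate 2, which is less than 2-fold.

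ORC2, ORC3, ORC4 and ORC5 form the core of the complex together with ORC1. ORC4 (ENSG00000115947, chromosome 2, 147930397 to 148021604) had 566 and 572 counts in the controls and 545 and 465 after knockdown, which are levels of 33.5 ± 2.36 and 28.7 ± 0.653 CPM (SD, n = 2). It fell by 0.22 on the log2 scale (SE 0.077, adjusted p = 0.0256 by edgeR). That call rested on single libraries, since the adjusted p was 0.0517 without siALKBH5 replicate 1, 0.113 without siALKBH5 replicate 2 and 0.295 without siControl replicate 1, and its log2 fold change went from -0.29 to -0.14 when single libraries were removed. DESeq2 gave ORC4 an adjusted p of 0.14. ORC2 had 405 and 431 counts in the controls and 434 and 406 after knockdown, and ORC5 had 239 and 281 against 259 and 264. The libraries of both genes overlapped between the groups, and the 95% interval of the log2 fold change was -0.21 to 0.14 for ORC2 and -0.26 to 0.20 for ORC5. ORC3 had 414 and 420 counts against 518 and 456 and a log2 fold change of 0.18 (SE 0.083, adjusted p = 0.0895 by edgeR).

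Per kilobase of gene length (FPKM, recomputed here from the counts), ORC1 and ORC6 were the least abundant subunits in siControl, at 2.19 ± 0.171 and 1.57 ± 0.305 FPKM (SD, n = 2), and ORC3 was the most abundant at 6.65 ± 0.451 FPKM. In siALKBH5, ORC1 stood at 6.45 ± 0.443 FPKM beside ORC3 at 7.51 ± 0.0047 FPKM. The highest subunit was 3.90 and 4.67 times the lowest in the siControl libraries and 2.30 and 2.37 times in the siALKBH5 libraries. The ratio of ORC1 to ORC2 went from 0.479 and 0.562 in siControl to 1.70 and 1.45 in siALKBH5. Per length the subunits were therefore closer to each other after knockdown, with ORC1 above ORC2 in both knockdown libraries and below it in both controls. The listed lengths count all annotated exonic bases of a gene, so comparisons between genes depend on them. In CPM, ORC1 stayed below ORC2 in siALKBH5, at 20.4 beside 24.0.

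All 3 genes of the loading step were higher. CDC6 (ENSG00000094804, chromosome 17, 40287633 to 40304657), the ATPase that joins ORC at the origin to recruit the ring, had 246 and 257 counts in the controls and 627 and 564 after knockdown. Its level rose from 14.8 ± 0.696 to 33.9 ± 0.497 CPM (SD, n = 2), a log2 fold change of 1.20 (SE 0.088) with an adjusted p of 3.5e-13 by edgeR. CDT1, which carries the MCM ring to the origin, had 702 and 816 counts in the controls and 1318 and 1204 after knockdown, and rose from 44.5 ± 1.26 to 71.9 ± 1.84 CPM (log2 fold change 0.69, SE 0.057). For both loaders the knockdown libraries were close together and well above the controls.

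GMNN, the inhibitor of CDT1, had 219 and 258 counts in the controls and 285 and 331 after knockdown. Its knockdown libraries stood apart, at 15.3 and 20.1 CPM, beside 13.6 and 14.3 CPM in siControl. The log2 fold change of GMNN was 0.33 (SE 0.12, adjusted p = 0.0262 by edgeR). Without siALKBH5 replicate 2 it was 0.13 with an adjusted p of 0.52, without siControl replicate 1 it was 0.30 with an adjusted p of 0.0884, and DESeq2 gave an adjusted p of 0.114. Per length, the ratio of CDT1 to GMNN was 2.38 and 2.35 in siControl and 3.43 and 2.70 in siALKBH5, higher in both knockdown libraries.

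**Figure D2:**
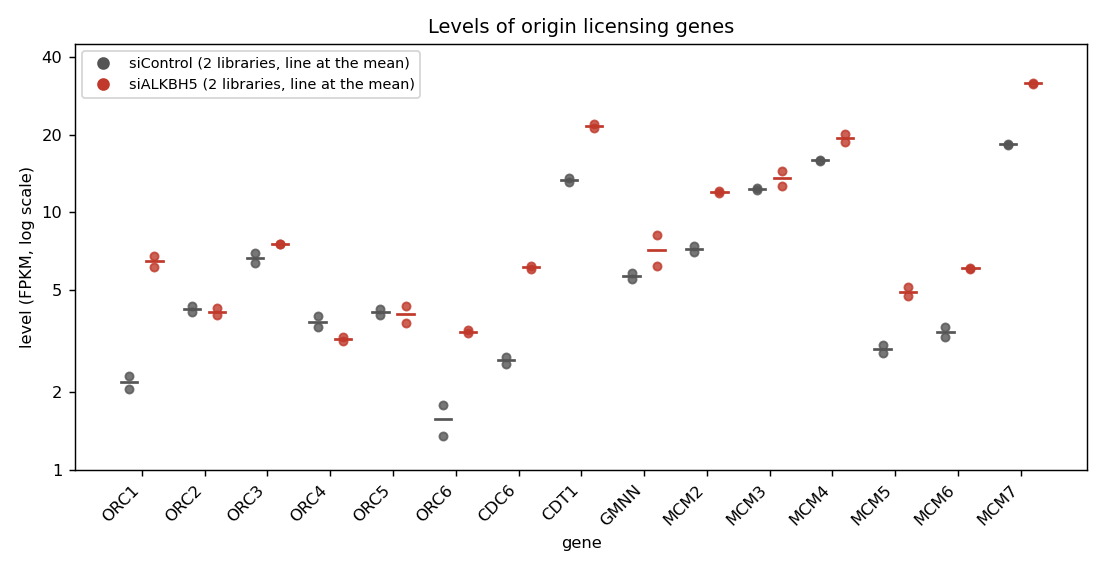
Level of each origin licensing gene (FPKM, log scale, vertical axis) in the 2 siControl libraries (grey) and the 2 siALKBH5 libraries (red), with a line at each group mean. MCM7 stands highest in both groups, at 18.3 and 31.7 FPKM, and ORC1 goes from below ORC2 in siControl to above it in siALKBH5.

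Of the 8 MCM genes, 7 were higher and MCM3 was not called. MCM10 (ENSG00000065328, chromosome 10, 13161554 to 13211104), a fork protein outside the ring that helps to activate the helicase, had 57 and 64 counts in the controls and 166 and 138 after knockdown. Its level rose from 3.55 ± 0.0137 to 8.64 ± 0.355 CPM (SD, n = 2), with a log2 fold change of 1.28 (SE 0.17, adjusted p = 2.2e-07 by edgeR). MCM8, a relative of the ring subunits with a role in recombination, rose from 18.7 ± 0.876 to 26.6 ± 1.09 CPM, a log2 fold change of 0.51 (SE 0.089).

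The 6 subunits of the ring are needed in equal numbers in the protein, and 5 of their 6 transcripts were called higher. MCM2, MCM5, MCM6 and MCM7 had log2 fold changes of 0.74 (SE 0.063), 0.74 (SE 0.081), 0.82 (SE 0.097) and 0.79 (SE 0.041). MCM7 had 1305 and 1438 counts in the controls and 2581 and 2299 after knockdown, and MCM2 had 583 and 616 against 1109 and 960. MCM4 had 1788 and 1988 counts in the controls and 2629 and 2141 after knockdown, with a log2 fold change of 0.29 (SE 0.042, adjusted p = 8.3e-07 by edgeR). MCM3 had 729 and 798 counts in the controls and 865 and 870 after knockdown, with a log2 fold change of 0.14 (SE 0.066, adjusted p = 0.0890 by edgeR), and without siALKBH5 replicate 1 it was 0.24 with an adjusted p of 0.0105. Differences between the subunits in their change were not tested.

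Per length, the ring subunits ranged from MCM5 at 2.94 ± 0.15 FPKM (SD, n = 2) to MCM7 at 18.3 ± 0.173 FPKM in siControl and from 4.91 ± 0.269 to 31.7 ± 0.244 FPKM in siALKBH5. MCM4 was at 15.9 and 19.4 FPKM in the 2 groups, MCM3 at 12.3 and 13.6, MCM2 at 7.18 and 12.0, and MCM6 at 3.43 and 6.05. The order of the 6 subunits per length was MCM7, MCM4, MCM3, MCM2, MCM6 and MCM5 in both groups. This order depends on the listed lengths, which count all annotated exonic bases of a gene. In CPM, MCM5 stood above MCM6, at 21.6 and 14.1 in siControl and at 36.0 and 24.9 in siALKBH5. MCM3 and MCM2 were close after knockdown, with 12.7 and 14.5 FPKM of MCM3 beside 12.1 and 11.9 FPKM of MCM2 in the 2 siALKBH5 libraries. The ratio of MCM7 to MCM5 was 6.06 and 6.43 in siControl and 6.18 and 6.75 in siALKBH5, so the spread of levels within the ring was about the same in both groups.

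Promoter sequences were examined because E2F factors are known to act on this gene family. RefSeq promoters (GRCh38.p14, from 250 bases before to 50 bases after the start) were held for 42 of the 48 genes, and were searched on both strands for the words of the E2F consensus, TTTCCCGC, TTTCGCGC, TTTGCCGC and TTTGGCGC. TTTCGCGC overlaps its own reverse complement, so 1 site can give 2 matches. A word was found in 19 of the 42 promoters (45.2%), in 3.33% of all 27305 promoters, in 5.29% of the 10374 promoters of tested genes and in 6 of the 35 promoters held for a second list of replication genes described below (17.1%). The 30-base windows below are a selection from the 19 genes with at least 1 of the words. The log2 fold changes of the genes shown ranged from -0.0032 to 1.20. The match nearest the start was TTTGGCGC in CDC6, TTTCGCGC in MCM2, MCM3, MCM6 and MCM7, and TTTCCCGC in the others shown. The promoter of MCM6 held 4 matches, those of MCM2, MCM3 and MCM7 held 2 each, and the others held 1. In the MCM6 window the letters tttgGCGC also spell TTTGGCGC, which overlaps the marked word. Each window is given on the strand of its gene with the match nearest the start in capitals, in either orientation.

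CDC6, chr17:40287875-40287904, plus strand: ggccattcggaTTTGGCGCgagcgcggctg
CDT1, chr16:88803743-88803772, plus strand: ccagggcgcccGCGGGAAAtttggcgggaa
MCM2, chr3:127598402-127598431, plus strand: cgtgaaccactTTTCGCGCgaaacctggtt
MCM3, chr6:52284728-52284757, minus strand: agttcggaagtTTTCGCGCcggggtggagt
MCM6, chr2:135876511-135876540, minus strand: ggtcaggtttgGCGCGAAAtctccagctcc
MCM7, chr7:100101388-100101417, minus strand: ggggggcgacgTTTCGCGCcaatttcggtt
GINS2, chr16:85688967-85688996, minus strand: ctctcgccgtgGCGGGAAAacggcggccgc
GINS3, chr16:58392455-58392484, plus strand: cgtccccgggcGCGGGAAAcgagtttcaat
PCNA, chr20:5126663-5126692, minus strand: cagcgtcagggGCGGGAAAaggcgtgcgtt

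MCM3, with a word of the same letters as MCM2 and MCM7, was not called, and GINS3 and GINS2 share the word TTTCCCGC with log2 fold changes of -0.0032 and 0.99. The median log2 fold change was 0.67 over the 19 genes with a word (from -0.0032 to 1.20) and 0.58 over the 23 genes without one (from -0.22 to 1.97). Of the 5 genes past 2-fold, CDC6 was the 1 with a word in this window. The letters CCAAT, a common promoter element, were found in 24 of the 42 promoters (57.1%), in 18 of the 35 of the second list (51.4%) and in 36.6% of those of tested genes. The letters TTTGAA, the core of the element that is known from genes of late cell cycle phases, were found in 1 of the 42, DBF4 (2.38%), in 3 of the 35 (8.57%) and in 9.47% of those of tested genes. These are exact matches of letters in 1 promoter per gene and not measurements of binding. Sites with other letters and other promoters of a gene were not searched. Whether E2F factors had a part in these changes was not tested.

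Both genes of the firing kinase were higher. CDC7, the catalytic subunit, had 44 and 50 counts in the controls and 100 and 93 after knockdown, a log2 fold change of 0.99 (SE 0.21, adjusted p = 2.3e-04 by edgeR). DBF4, its activator, had 207 and 246 counts against 402 and 379, a log2 fold change of 0.74 (SE 0.10, adjusted p = 4.0e-07 by edgeR). All knockdown libraries of both genes were above all controls. Per length, DBF4 was 3.65 and 3.82 times CDC7 in siControl and 3.12 and 3.16 times in siALKBH5.

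CDC45 changed more than any other of the 48 genes. CDC45 (ENSG00000093009, chromosome 22, 19479459 to 19520612) joins the MCM ring and the GINS complex in the active helicase. It had 70 and 63 counts in the controls and 279 and 258 after knockdown, so that the lowest knockdown library held several times the counts of the highest control. Its level rose from 3.92 ± 0.596 to 15.3 ± 0.523 CPM (SD, n = 2), which is 3.91-fold in the fit (log2 fold change 1.97, SE 0.15, 95% interval 1.67 to 2.27, adjusted p = 8.5e-13 by edgeR).

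The 4 GINS genes encode the subunits of 1 small complex, and 3 of them were higher. GINS2 had 93 and 146 counts in the controls and 260 and 229 after knockdown, with controls at 5.77 and 8.11 CPM and both knockdown libraries at 13.9 CPM. Its log2 fold change was 0.99 (SE 0.14), and it was 0.78 without siControl replicate 1 and 1.27 without siControl replicate 2. GINS4 had 80 and 94 counts against 179 and 141 (log2 fold change 0.83, SE 0.16), and GINS1 had 395 and 455 against 651 and 575 (0.49, SE 0.076). GINS3 had 219 and 234 counts in the controls and 250 and 216 after knockdown. Its level was 13.3 ± 0.415 and 13.3 ± 0.184 CPM (SD, n = 2), the groups overlapped, and the 95% interval of its log2 fold change was -0.24 to 0.23. Per length, the ratio of CDC45 to GINS3 was 0.573 and 0.483 in siControl and 2.0 and 2.14 in siALKBH5.

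**Figure D3:**
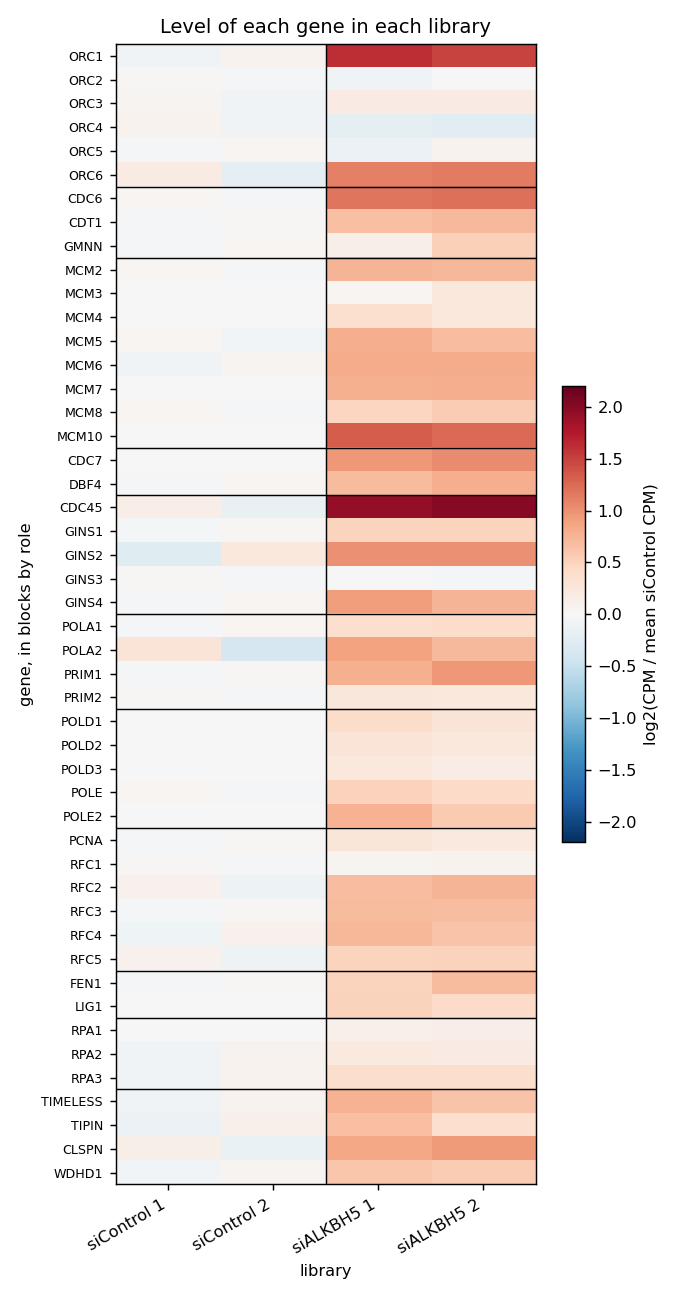
Colour gives log2 of the CPM in each library over the mean siControl CPM of the same gene, with the 4 libraries in columns and the 48 genes in rows, in blocks by role. The 2 siALKBH5 columns are red for most genes, most deeply for CDC45, ORC1 and MCM10, and pale or blue for ORC2, ORC4, ORC5 and GINS3. Genes with small increases, such as RFC1, RPA1, MCM3 and ORC3, are pale as well.

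All 4 genes of polymerase alpha and primase were higher. PRIM1, the catalytic primase subunit, had 87 and 100 counts in the controls and 177 and 175 after knockdown, a log2 fold change of 0.87 (SE 0.15, adjusted p = 1.9e-05 by edgeR). POLA1, the catalytic polymerase subunit, rose from 17.9 ± 0.799 to 23.5 ± 0.451 CPM (SD, n = 2), a log2 fold change of 0.39 (SE 0.093). PRIM2, the large primase subunit, had 378 and 405 counts in the controls and 510 and 442 after knockdown, a log2 fold change of 0.24 (SE 0.083, adjusted p = 0.0234 by edgeR). The call of PRIM2 was lost with DESeq2 (adjusted p = 0.124), without siALKBH5 replicate 1 (0.0991) and without siControl replicate 2 (0.143).

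POLA2, the accessory subunit of polymerase alpha, had the lowest level per length of the 48 genes, with 41 and 29 counts in the controls and 72 and 56 after knockdown. Its libraries did not overlap but varied within the groups. The log2 fold change was 0.82 (SE 0.26, adjusted p = 0.0130 by edgeR), and it went from 0.51 without siControl replicate 2 (adjusted p = 0.22) to 1.17 without siControl replicate 1. Without siALKBH5 replicate 1 it was 0.72 with an adjusted p of 0.0836, and DESeq2 gave an adjusted p of 0.0912. POLA2 shares 35.1% of its exonic bases with another annotated gene on the same strand.

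The 5 listed genes of polymerases delta and epsilon were all higher. POLE2, the second subunit of the leading-strand polymerase epsilon, had 89 and 99 counts in the controls and 174 and 135 after knockdown (log2 fold change 0.67, SE 0.16, adjusted p = 8.1e-04 by edgeR). POLE, the catalytic subunit, had 730 and 762 counts against 1158 and 960 (log2 fold change 0.46, SE 0.061). POLD1, the catalytic subunit of polymerase delta, rose by 0.34 (SE 0.082) and POLD2, an accessory subunit, by 0.25 (SE 0.044) on the log2 scale. For these 5 genes every knockdown library was above every control. Further subunits of both enzymes stood on the second list and were not called in either direction.

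POLD3, an accessory subunit that contacts PCNA, had 491 and 543 counts in the controls and 669 and 557 after knockdown, a log2 fold change of 0.20 (SE 0.074, adjusted p = 0.0304 by edgeR). This was the smallest change of the group, and its call depended on the libraries. Its adjusted p was 0.218 without siALKBH5 replicate 1, 0.082 without siControl replicate 1, 0.121 without siControl replicate 2, 0.056 with library size as the only scaling and 0.142 with DESeq2.

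Among the clamp and clamp loader genes 5 of 6 were higher. PCNA, the sliding clamp, was the most abundant of the 48 genes per length, at 82.5 ± 1.41 FPKM (SD, n = 2) in siControl and 97.7 ± 2.84 FPKM in siALKBH5. It had 1931 and 2209 counts in the controls and 2740 and 2317 after knockdown, a log2 fold change of 0.25 (SE 0.039, adjusted p = 4.9e-06 by edgeR). The small loader subunits RFC2, RFC3, RFC4 and RFC5 had log2 fold changes of 0.72 (SE 0.092), 0.68 (SE 0.11), 0.68 (SE 0.11) and 0.51 (SE 0.091). RFC2 had 296 and 285 counts in the controls and 511 and 473 after knockdown (adjusted p = 1.3e-07 by edgeR). RFC1, the large subunit, had 545 and 581 counts in the controls and 640 and 577 after knockdown, a log2 fold change of 0.07 with a 95% interval of -0.08 to 0.22 (adjusted p = 0.495 by edgeR).

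The genes that complete the lagging strand were both higher. FEN1, the nuclease that trims flaps between fragments, had 411 and 476 counts in the controls and 682 and 691 after knockdown (log2 fold change 0.59, SE 0.079, adjusted p = 2.4e-07 by edgeR). LIG1, the ligase that seals them, had 428 and 489 counts against 710 and 590 (log2 fold change 0.46, SE 0.075, adjusted p = 7.9e-06 by edgeR). The knockdown libraries were above the controls for both.

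The 3 subunits of replication protein A, which coats single-stranded DNA at the fork and in repair, were higher by small amounts. RPA3 had 647 and 798 counts in the controls and 1031 and 904 after knockdown (log2 fold change 0.38, SE 0.063, adjusted p = 1.0e-05 by edgeR). RPA1, the largest subunit, had 2555 and 2910 counts against 3241 and 2918, the highest counts among the 48 genes, and its log2 fold change of 0.13 (SE 0.035, adjusted p = 0.00318 by edgeR) was the smallest among the genes called higher. RPA2 had 459 and 569 counts against 654 and 558, with a log2 fold change of 0.20 (SE 0.076, adjusted p = 0.0414 by edgeR). The call of RPA2 was lost without siALKBH5 replicate 1 (adjusted p = 0.177), without siALKBH5 replicate 2 (0.0561), without siControl replicate 1 (0.339), with DESeq2 (0.165), with library size only (0.0741) and with no filter (0.0548).

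All 4 fork protection genes were higher. CLSPN, which encodes claspin, the adaptor of the replication checkpoint, had 42 and 39 counts in the controls and 80 and 75 after knockdown (log2 fold change 0.89, SE 0.23, adjusted p = 0.00260 by edgeR). TIMELESS had 337 and 422 counts against 707 and 563 (log2 fold change 0.70, SE 0.082), and its partner TIPIN had 96 and 126 against 192 and 137 (0.52, SE 0.15, adjusted p = 0.00711 by edgeR). TIMELESS and TIPIN form 1 complex that travels with the helicase. WDHD1, which links the helicase to polymerase alpha, rose from 14.7 ± 0.762 to 22.0 ± 0.690 CPM (SD, n = 2), a log2 fold change of 0.58 (SE 0.099). For TIPIN the adjusted p was 0.151 without siALKBH5 replicate 1, 0.064 without siControl replicate 1 and 0.0628 with DESeq2.

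Among the 48 genes, those with a low level in siControl tended to have the larger changes. Whether the same relation holds over all tested genes was not examined. Over the 48 genes the mean siControl level in FPKM and the log2 fold change had a Spearman rho of -0.59 and a Pearson r of -0.51. The same 4 libraries lie behind every gene and the siControl libraries enter both measures, so the relation was also taken with the level from 1 control and the change against the other. Spearman rho was then -0.56 with the level from siControl replicate 1 and -0.53 with the level from siControl replicate 2. The 16 genes with the lowest levels (0.363 to 2.64 FPKM) had a median log2 fold change of 0.85, the middle 16 (2.66 to 5.51 FPKM) 0.42, and the highest 16 (5.64 to 82.5 FPKM) 0.36. Of these 15, 12 and 14 genes were called higher. MCM7 and CDT1 were both abundant and changed by 0.79 and 0.69 on the log2 scale, while GINS3 was low and did not pass the test.

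**Figure D4:**
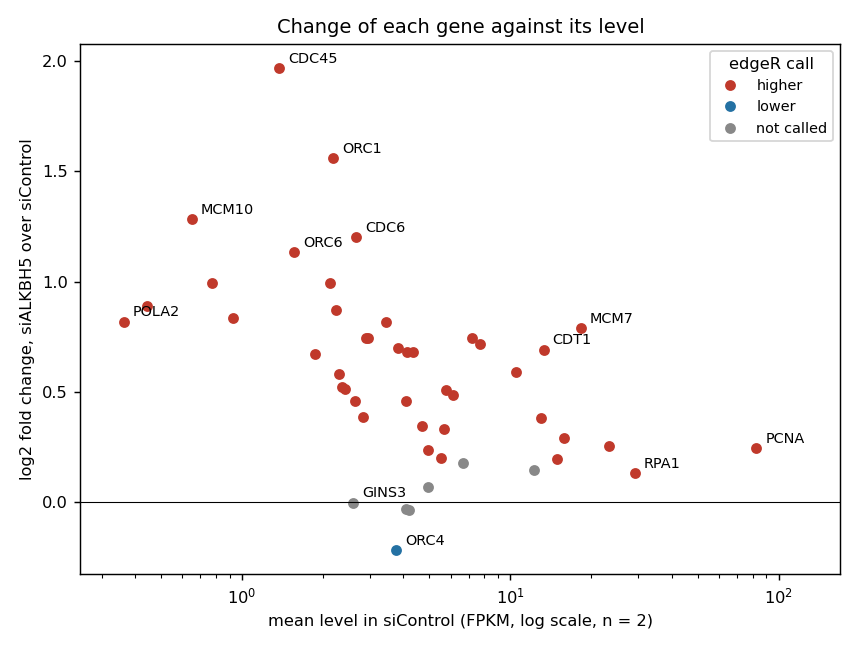
Log2 fold change (siALKBH5 over siControl, vertical axis) against the mean siControl level (FPKM, log scale, n = 2) of the 48 genes, coloured by edgeR call. The 5 genes past 2-fold all lie under 3 FPKM, and PCNA at 82.5 FPKM has a log2 fold change of 0.25.

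Some of the values carry a limit from the annotation. POLA2, MCM2, GINS4, PRIM1 and TIPIN share more than 20% of their exonic bases with another gene (21.0 to 35.1%), and the strand used in counting is not given in the sources used here, so reads of overlapping genes cannot be told apart. For each of these genes, the gene with the largest overlap averaged at most 1.25 counts, and MCM2, GINS4 and PRIM1 also overlap further genes. Among the other 43 genes, 36 were higher and the median log2 fold change was 0.51. Some of the 43 share smaller parts with abundant genes. RFC5 shares 10.6%, and its neighbour WSB2 averaged 1057 counts beside 393 for RFC5. FEN1 shares 8.68%, and its neighbour TMEM258 averaged 1180.5 counts beside 565 for FEN1. The annotated pseudogenes of the 48 genes had few counts, with 5 for the 3 pseudogenes of PCNA beside 9197 for PCNA over the 4 libraries, and 13 for that of DBF4 beside 1234 for DBF4.

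The second list of 42 genes that act in or beside replication was examined in the same fit, and 41 could be tested. Of these 23 were higher (56.1%, against 19.3% of all tested genes) and 18 were not called, with a median log2 fold change of 0.28. By edgeR 0 of the 41 fell after adjustment and 1 was lower at an unadjusted p under 0.05, POLD4, the small subunit of polymerase delta, and DESeq2 called 0 lower, also unadjusted. POLD4 had 242 and 282 counts in the controls and 250 and 200 after knockdown, a log2 fold change of -0.26 with an adjusted p of 0.0696 by edgeR, and with library size as the only scaling it was -0.29 with an adjusted p of 0.0490.

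The largest changes on this list were those of DSCC1, DTL and EXO1, the 3 genes past 2-fold, a limit that 1.62% of all tested genes passed upward. DSCC1, part of an alternative clamp loader, had 46 and 61 counts in the controls and 168 and 182 after knockdown (log2 fold change 1.67, SE 0.18, adjusted p = 2.0e-09 by edgeR). DTL, the receptor of the ubiquitin ligase that destroys CDT1 on PCNA, had 88 and 67 counts against 247 and 184 (1.42, SE 0.16, adjusted p = 1.1e-08 by edgeR). EXO1, a nuclease of mismatch repair and end resection, had 81 and 81 against 194 and 157 (1.07, SE 0.16, adjusted p = 1.2e-06 by edgeR). In all 3 genes the knockdown libraries lay well above the controls.

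The smallest changes called higher were those of NASP, a histone chaperone (0.17, SE 0.053, adjusted p = 0.00955 by edgeR), MCMBP, an MCM-binding protein (0.22, SE 0.055, adjusted p = 0.00158), and TOPBP1, a scaffold of helicase activation and checkpoint signalling (0.28, SE 0.055, adjusted p = 1.0e-04). The call of NASP was lost without siALKBH5 replicate 1 (adjusted p = 0.0622), without siControl replicate 2 (0.0832) and with DESeq2 (0.0662). RNASEH2A had 5 and 2 counts in the controls and 2 and 7 after knockdown and was too low to test. Exons shared with other genes were not examined for this list, and the reason for the low counts of RNASEH2A was not tested.

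**Figure D5:**
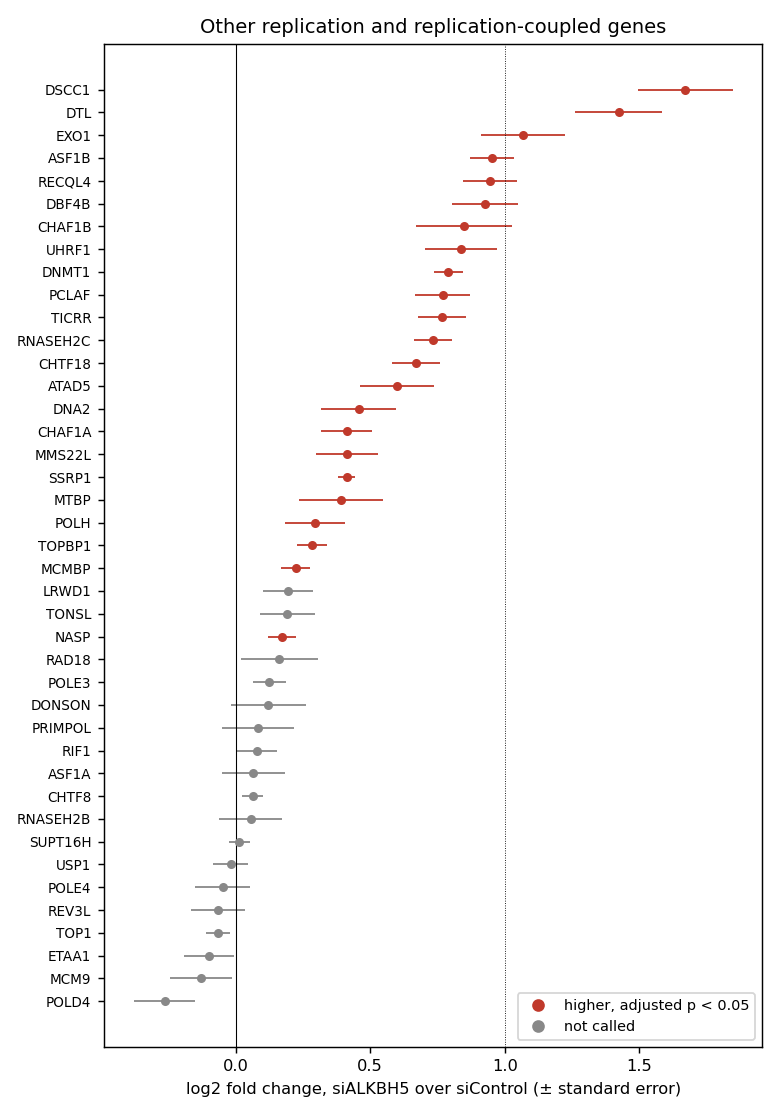
Log2 fold change with standard error (siALKBH5 over siControl, horizontal axis) of the 41 tested genes of the second list, ordered by size. Red points were higher at an adjusted p under 0.05 (edgeR), grey points were not called, and the dotted line marks 2-fold, which DSCC1, DTL and EXO1 pass.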

How the data were processed

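Poly-A RNA of HaCaT cells was sequenced. Per the labels (the submitters' processing notes), the authors used CASAVA, HISAT2 2.0.5, featureCounts 1.5.0-p3, DESeq2 1.20.0 and hg38. The authors deposited raw counts per gene without normalization and FPKM, in 1 table per replicate, and all 58735 gene identifiers and coordinates matched GENCODE 29. The library sizes behind the deposited FPKM were not the count totals but had been scaled separately in each table, so levels per length were recomputed with TMM library sizes and the listed gene lengths. The tables also hold fold changes and p-values of comparisons without replicates, and these were not used.

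Counts of the 4 libraries (16017502 to 18837807) were fitted over all genes by the quasi-likelihood test of edgeR 4.0.16 (R 4.3.3) after filterByExpr and TMM scaling. The model held the group alone, the Benjamini-Hochberg adjustment ran over 15075 genes, and genes were called at an adjusted p under 0.05. The common biological coefficient of variation was 0.0253. With 2 libraries against 2 there are 3 ways to divide them, so no permutation p can go under 0.05. Replicates differed by more than sampling noise (chi-square per degree of freedom 1.74 and 1.85). The scripts were tested on simulated data. Alternatives were DESeq2 1.42.0 or its size factors, scaling by library size, dropping the filter or requiring 10 counts on average, a replicate block, and removal of single libraries. All 48 genes may be named, and full statistics went to the highest and lowest log2 fold change of each role, to genes past 2-fold and to genes called lower, with the 3 highest and lowest called of the second list. The genes and lists were chosen with earlier results of these data known. POLD4 and RNASEH2A were named after their values were seen.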

Additional observations from a re-analysis of the deposited data

How the results depend on the processing

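All 41 genes called higher were higher in direction under each of the 10 alternatives, and 35 of them were called under every one. The number of genes called higher was 35 with DESeq2, 39 with library size only, 40 with no filter and 37 to 39 when single libraries were left out. The number called lower was 1, and it was 0 with DESeq2 and 0 to 1 with each library left out. The number past 2-fold was 7 with DESeq2, 6 with no filter, 6 with the replicate block and 5 to 7 with each library left out. CDC45, ORC1, MCM10 and CDC6 were past 2-fold in every setting. The median log2 fold change of the 48 genes lay between 0.53 and 0.56, and that of ALKBH5 between -0.90 and -0.79. On the second list 19 to 23 genes were called higher in all settings, and the number lower was 1 with library size only and 0 otherwise. The genes with changes near 0 turned direction without being called. ORC2 lay between -0.075 and 0.010 (0.0012 without siControl replicate 1), ORC5 between -0.13 and 0.076 (0.0075 without siControl replicate 2), and GINS3 between -0.036 and 0.031 with each library left out (0.013 without siALKBH5 replicate 2), 0.00057 with DESeq2 and 0.0036 with no filter. The cause was not tested.

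With the replicate number as a block, 41 genes were higher, 1 was lower, 23 of the second list were higher, and the same 42 genes were called as without it. The correlation of same-numbered deviations over the tested genes was 0.034. These deviations include counting noise, so the value cannot exclude that same-numbered libraries were handled together. A library left out leaves 1 library in its group, which is assumed to vary like the others. Genes with few counts, such as POLA2, CLSPN and CDC7, had the widest errors (SE 0.21 to 0.26), and intervals cover only the spread between these libraries.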
